A study of Mus musculus with 2 samples.

Results

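The genes of bile acid and sterol transport in the small intestine were followed in 2 single-cell libraries. The 9 members were taken by symbol from the 55357 genes of the deposited tables: Slc10a2, Fabp6, Slc51a, Slc51b, Nr1h4, Fgf15, Npc1l1, Abcg5 and Abcg8. The study asked how adiponectin made in gut epithelial cells affects the intestinal stem and transit-amplifying cells, and sequenced small intestinal epithelium, enriched for crypts, of control Adipfl/fl mice and of Adipfl/flpVilli-CreT mice. Both genotypes carry floxed alleles of the adiponectin gene, and the second also carries Cre recombinase under the villin promoter, which is active in gut epithelial cells. The cells of each library were pooled from male mice aged 8 weeks, so each genotype has 1 library and no replicate. No test between the genotypes is possible, no p-value is given, and every interval below covers counting error only.

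Bile acids are made in the liver, act as detergents in the gut lumen and are taken back mainly in the ileum, the last segment of the small intestine. There Slc10a2 imports them across the brush border, Fabp6 binds them in the cytosol, and the Slc51a-Slc51b dimer exports them towards the blood. The nuclear receptor Nr1h4 (FXR) senses them and induces Fgf15, a hormone that lowers bile acid synthesis in the liver. Cholesterol follows another route, with uptake by Npc1l1, mostly in the proximal intestine, and return to the lumen by Abcg5 and Abcg8, which work as a dimer.

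The libraries held 42150623 UMIs (unique molecular identifiers, 1 per captured transcript molecule) in 9791 barcodes of Adipfl/fl mice and 63370798 UMIs in 11838 barcodes of Adipfl/flpVilli-CreT mice. Kept were barcodes in which over 500 genes were detected and mitochondrial UMIs made up less than 25%, namely 3069 with 25687687 UMIs and 5555 with 48895126 UMIs. The mitochondrial limit removed 4670 and 4263 barcodes, more than were kept in the Adipfl/fl library and fewer than were kept in the other. The paper reports keeping more barcodes of both libraries with the same numbers as limits. The part of this uneven removal in the genotype ratios was not tested. The libraries shared 31 barcodes, 3 of them among those kept. The targeted gene Adipoq had 1 UMI in the Adipfl/fl library and 0 in the Adipfl/flpVilli-CreT library, too few to check the genotype. Clusters were made without the 9 members and named from marker lists. They gave 1996 and 3979 enterocyte-like barcodes in 3 zones of the villus, named villus bottom-like (222 and 441 barcodes), mid-villus-like (898 and 1489) and villus tip-like (876 and 2049). Depth and mitochondrial share moved with the zone. The median was 21667.5 and 20258 UMIs per barcode at the bottom and 3498.5 and 3433 at the tip, with median mitochondrial shares of 6.60% and 5.86% at the bottom and 21.2% and 20.7% at the tip, and their part in the zone differences was not tested. Levels are a gene's UMIs in a class scaled to 1000000 UMIs of that class, written as CPM, with the Adipfl/fl library first. Because the kit tags the 3′ end of each molecule, a level counts molecules without correction for gene length, and genes are compared with each other only loosely.

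The members fell into abundant and rare genes. In enterocyte-like barcodes Npc1l1 had the highest level of the 9, with rank 176 of 20188 detected genes in the Adipfl/fl library and rank 175 of 22277 in the Adipfl/flpVilli-CreT library. Slc51a followed at rank 458 and 397, Abcg5 at 500 and 636, Abcg8 at 707 and 936, and Slc51b at 740 and 614. Nr1h4 lay at rank 4261 and 4325. The 3 remaining genes, which belong to the ileal route or its hormone signal, were rare. Fgf15 had rank 7049 and 8511, Fabp6 rank 9294 and 9320, and Slc10a2 rank 10450 and 10115.

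Slc10a2, the bile acid importer (ENSMUSG00000023073, mouse build GRCm38, chromosome 8, 5083219 to 5105351, minus strand), had 29 UMIs in all enterocyte-like barcodes of the Adipfl/fl library, or 1.75 CPM (95% Poisson interval 1.17 to 2.51). The Adipfl/flpVilli-CreT library had 70 UMIs, or 2.07 CPM. These UMIs lay in 25 of 1996 and 63 of 3979 barcodes, and no barcode held more than 3 of them. Its level was higher at the tip than at the bottom in both libraries. It was 0.921 CPM (5 UMIs) at the bottom, 1.65 CPM (13 UMIs) in the middle and 3.36 CPM (11 UMIs) at the tip of the Adipfl/fl library, and 0.972 CPM (11 UMIs), 1.555 CPM (23 UMIs) and 4.69 CPM (36 UMIs) in the Adipfl/flpVilli-CreT library. The ratio of tip to bottom was 3.65 (1.17 to 13.4) and 4.83 (2.40 to 10.5). T cell-like barcodes, which should lack the gene and so measure free RNA and doublets, held 0 Slc10a2 UMIs in both libraries.

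Fabp6, the ileal bile acid-binding protein (ENSMUSG00000020405, chromosome 11, 43596049 to 43601540, minus strand), is one of the most abundant transcripts of ileal enterocytes. Here it had 55 UMIs, or 3.32 CPM (2.50 to 4.32), in enterocyte-like barcodes of the Adipfl/fl library and 106 UMIs, or 3.14 CPM (2.57 to 3.795), in those of the Adipfl/flpVilli-CreT library. The bottom zone held 50 and 94 of these UMIs, at 9.21 and 8.31 CPM, and the middle held 5 and 12, all in cluster 6. The tip held 0 UMIs in both libraries, in 3270641 and 7674298 UMIs of that zone. Set against a floor of 3 UMIs per zone and library, its level was at least 10.04-fold lower at the tip than at the bottom in the Adipfl/fl library and at least 21.25-fold lower in the Adipfl/flpVilli-CreT library. By level, Fabp6 therefore ran the opposite way along the villus to Slc10a2, whose zones held few UMIs. The share of barcodes with Slc10a2 did not rise, at 2.25% and 1.81% at the deeper bottom and 1.14% and 1.71% at the tip. With each barcode thinned to 2000 UMIs, 0 of 221 and 1 of 439 bottom-like barcodes held it. At the tip 5 of 794 and 18 of 1906 did, with intervals that overlapped those of the bottom.

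Few barcodes carried Fabp6. It was seen in 15 of 222 bottom-like barcodes (6.76%, exact binomial interval 3.83% to 10.9%) of the Adipfl/fl library and in 37 of 441 (8.39%, 5.98% to 11.4%) of the Adipfl/flpVilli-CreT library. T cell-like barcodes held 0 and 1 Fabp6 UMIs. After thinning to 2000 UMIs per barcode, which sets depth equal, the shares were 1.36% (0.281% to 3.92%) and 2.05% (0.942% to 3.86%) at the bottom and 0% at the tip, where 0 of 794 and 0 of 1906 barcodes allow up to 0.4635% and 0.1934%. In the Adipfl/fl library 1 barcode held 17 of the 55 UMIs, and 4 barcodes with 5 or more UMIs held 36 of them. In the Adipfl/flpVilli-CreT library the richest barcode held 11 UMIs. Fabp6 was also seen outside the enterocyte-like zones, in unnamed cluster 10, with 16 and 36 UMIs at 6.90 and 6.53 CPM. This cluster had 11 of 11 stem cell markers and also fibroblast and smooth muscle markers, led by Acta2 and Olfm4.

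The promoter windows of this pair are shown because they are the route's ileal genes that were near the floor here. RefSeq gives a window of 300 bases (250 before to 50 after the start) on GRCm38.p6, for 8 of the 9 members. Fgf15 had no window. The Fabp6 window is chr11:43601513-43601812 and that of Slc10a2 is chr8:5105238-5105537, both on the minus strand and written 5′ to 3′ along the gene. Capitals mark matches, on either strand, to TTTATNA, a motif of the intestinal CDX factors, or to GTTAAT, a core site of HNF1 factors.
Fabp6: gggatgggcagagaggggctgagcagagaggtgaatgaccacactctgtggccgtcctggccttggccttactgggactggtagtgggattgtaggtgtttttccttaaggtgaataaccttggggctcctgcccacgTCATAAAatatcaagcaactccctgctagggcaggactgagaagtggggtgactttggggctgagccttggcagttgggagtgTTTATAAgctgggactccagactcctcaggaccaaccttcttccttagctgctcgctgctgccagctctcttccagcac
Slc10a2: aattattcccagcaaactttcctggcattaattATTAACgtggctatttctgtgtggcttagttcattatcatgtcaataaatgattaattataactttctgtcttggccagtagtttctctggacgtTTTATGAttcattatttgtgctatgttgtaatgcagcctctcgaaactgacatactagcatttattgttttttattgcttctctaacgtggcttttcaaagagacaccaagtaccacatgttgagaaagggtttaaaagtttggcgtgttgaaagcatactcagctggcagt
The Fabp6 window held TTTATNA at positions -112 and -29 (first base of the match, counted from the start of transcription). Slc10a2 held it at -122 and GTTAAT at -217. Among the other members the Nr1h4 window held TTTATNA at -76 and GTTAAT at -40, and the Npc1l1 window held GTTAAT at -40. Among all 32851 windows 14.1% held TTTATNA and 7.1% held GTTAAT, so these matches are common letters and a description only.

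The exporter genes were abundant and had their lowest level at the tip. Slc51a (ENSMUSG00000035699, chromosome 16, 32474504 to 32487879, minus strand) had 5105 UMIs, or 308 CPM, in enterocyte-like barcodes of the Adipfl/fl library and 12207 UMIs, or 361 CPM, in those of the Adipfl/flpVilli-CreT library. It was at 352 and 408 CPM at the bottom, 363 and 457 CPM in the middle and 103 and 109 CPM at the tip. The ratio of tip to bottom was 0.293 (0.260 to 0.329) in the Adipfl/fl library and 0.266 (0.247 to 0.287) in the Adipfl/flpVilli-CreT library. Among all 7774 genes tested in the Adipfl/fl library 46.7% were lower by 2-fold or more at the tip than at the bottom and 12.1% were higher by as much, and among 7751 in the Adipfl/flpVilli-CreT library 49.2% were lower and 12.1% higher. The members were 3 lower (Slc51a, Nr1h4, Fgf15) and 2 higher (Npc1l1, Abcg5) of 7 tested in the first library, and 2 lower (Slc51a, Nr1h4) and 1 higher (Npc1l1) of 6 tested in the second. The counts of lower members were near that background or below it.

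Slc51b, its partner subunit (ENSMUSG00000053862, chromosome 9, 65412714 to 65422955, minus strand), had 3372 UMIs, or 203.5 CPM, and 8223 UMIs, or 243 CPM. It stood at 201 and 217 CPM at the bottom, 245 and 315 CPM in the middle, and 108 and 145 CPM at the tip, a ratio of tip to bottom of 0.536 (0.474 to 0.605) and 0.668 (0.622 to 0.717). The subunits did not keep 1 ratio along the villus. Slc51a had 1.75 UMIs (1.62 to 1.89) for each UMI of Slc51b at the bottom of the Adipfl/fl library, 1.48 (1.40 to 1.57) in the middle and 0.955 (0.820 to 1.11) at the tip. In the Adipfl/flpVilli-CreT library the ratio was 1.88 (1.79 to 1.98), 1.45 (1.40 to 1.51) and 0.751 (0.685 to 0.822). The intervals of these pooled zones did not overlap in either library, but the clusters of the middle differed widely. The ratio was 1.041 and 1.042 in cluster 1, 1.36 and 1.345 in cluster 6, 1.82 and 1.655 in cluster 9 and 2.17 and 2.08 in cluster 7, the last above the bottom, so the clusters did not form an ordered series from bottom to tip. All 3 tip clusters lay below the bottom, at 0.659 to 1.11.

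Both promoter windows of the exporter are shown because both genes were lower at the tip and higher in the Adipfl/flpVilli-CreT library. They are chr16:32487830-32488129 for Slc51a and chr9:65422724-65423023 for Slc51b, on the minus strand, and capitals mark AGGTCA on either strand, the core site of many nuclear receptors.
Slc51a: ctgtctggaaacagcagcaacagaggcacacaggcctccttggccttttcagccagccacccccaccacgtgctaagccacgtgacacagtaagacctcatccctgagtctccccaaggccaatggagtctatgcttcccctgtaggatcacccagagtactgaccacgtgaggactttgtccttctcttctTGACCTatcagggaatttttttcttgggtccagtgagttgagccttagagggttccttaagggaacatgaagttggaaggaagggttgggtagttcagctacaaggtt
Slc51b: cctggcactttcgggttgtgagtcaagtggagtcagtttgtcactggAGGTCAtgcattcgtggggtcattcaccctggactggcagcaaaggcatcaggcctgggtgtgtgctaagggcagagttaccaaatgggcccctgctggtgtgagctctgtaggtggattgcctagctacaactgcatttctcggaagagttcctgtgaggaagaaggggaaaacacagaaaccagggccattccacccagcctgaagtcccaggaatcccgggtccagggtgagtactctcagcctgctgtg
Each held 1 match, at -58 in Slc51a and -203 in Slc51b, and 16.3% of all windows held at least 1. Among the other members the windows of Nr1h4, at -214, and Npc1l1, at -100, also held AGGTCA. No member's window held an exact match to the inverted repeat of AGGTCA with 1 base between the repeats (IR-1), a form bound by FXR with RXR. Only 3 of all 32851 windows held these exact letters (0.00913%), so their absence here says nothing about FXR. Near matches were not searched, and the Fabp6 window above holds a near match, aggtgaataacct. The share of AGGTCA counts those that lie inside a longer motif.

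The bile acid receptor Nr1h4 (ENSMUSG00000047638, chromosome 10, 89454234 to 89533585, minus strand) was highest at the bottom. Its levels in the Adipfl/fl library were 53.95 CPM (293 UMIs) at the bottom, 22.5 CPM (177 UMIs) in the middle and 6.73 CPM (22 UMIs) at the tip. They were 53.2 CPM (602 UMIs), 22.0 CPM (326 UMIs) and 5.60 CPM (43 UMIs) in the Adipfl/flpVilli-CreT library. The ratio of tip to bottom was 0.125 (0.0770 to 0.192) and 0.105 (0.0754 to 0.144), so most of the receptor's UMIs, 59.55% and 62%, came from the bottom zone, which held 32.8% and 33.5% of all enterocyte-like UMIs. The receptor and its exporter targets thus had different profiles, with Slc51a and Slc51b as high or higher in the middle than at the bottom. The ratio of middle to bottom was 0.417 and 0.414 for Nr1h4, 1.03 and 1.12 for Slc51a, and 1.22 and 1.45 for Slc51b. With zones cut from a score of tip against bottom markers in place of clusters, the ratio turned to 0.617 and 0.606 for Slc51a and to 0.790 and 0.840 for Slc51b.

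Fgf15, the hormone gene (ENSMUSG00000031073, chromosome 7, 144896531 to 144900953, plus strand), was rare and uneven. It had 165 UMIs, or 9.96 CPM (8.50 to 11.6), in enterocyte-like barcodes of the Adipfl/fl library and 161 UMIs, or 4.77 CPM (4.06 to 5.56), in those of the Adipfl/flpVilli-CreT library. It was seen in 60 of 1996 and 69 of 3979 barcodes. In the Adipfl/fl library 10 barcodes with 5 or more UMIs held 85 of its 165 UMIs, and in the Adipfl/flpVilli-CreT library 7 such barcodes held 56 of 161. By zone it stood at 11.2 and 7.69 CPM at the bottom, 12.1 and 4.801 CPM in the middle and 2.75 and 0.391 CPM at the tip. Of the enterocyte-like barcodes with Fabp6, 4 of 18 in the Adipfl/fl library and 6 of 43 in the Adipfl/flpVilli-CreT library also held Fgf15. These shares were larger than the 60 of 1996 and 69 of 3979 over all enterocyte-like barcodes. Most barcodes with Fabp6 were bottom-like. In the bottom zone alone 3 of 15 and 6 of 37 barcodes with Fabp6 also held Fgf15, against 20 of 222 and 24 of 441 of all. After thinning to 2000 UMIs, the 4 and 11 barcodes with Fabp6 held 0 Fgf15 UMIs, too few barcodes to read. The part of zone and barcode depth in the larger shares was not tested. T cell-like barcodes held 0 Fgf15 UMIs in both libraries.

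The sterol importer Npc1l1 (ENSMUSG00000020447, chromosome 11, 6211013 to 6230143, minus strand) was seen in most enterocyte-like barcodes and was higher away from the villus bottom. It had 11666 and 23721 UMIs, at 704 and 702 CPM. It was at 355 and 373 CPM at the bottom, 831 and 777 CPM in the middle, and 979 and 1044 CPM at the tip, a ratio of tip to bottom of 2.76 (2.61 to 2.92) and 2.80 (2.70 to 2.91). Among all genes tested 12.1% in each library were higher by 2-fold or more in this contrast. Its level was much alike in the 3 tip-like clusters, from 898 CPM in cluster 3 of the Adipfl/fl library to 1069 CPM in cluster 0 of the Adipfl/flpVilli-CreT library.

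The efflux pair was highest away from the bottom but its members differed at the tip. Abcg5 (ENSMUSG00000040505, chromosome 17, 84658234 to 84683011, minus strand) had 4804 UMIs (290 CPM) and 8026 UMIs (238 CPM), and Abcg8 (ENSMUSG00000024254, chromosome 17, 84676302 to 84700333, plus strand) had 3504 UMIs (211.5 CPM) and 5645 UMIs (167 CPM). Abcg5 was at 148 and 142 CPM at the bottom, 359 and 305 CPM in the middle, and 359 and 248.9 CPM at the tip. Abcg8 was at 129 and 113 CPM at the bottom, 277 and 233 CPM in the middle, and 190 and 120 CPM at the tip. Both were past 2-fold from the bottom to the middle, as was Npc1l1, in each library, where 6.13% and 5.51% of all genes tested were higher by as much. Of the 7 and 6 members tested there, Nr1h4 was the 1 lower by 2-fold, as were 16.0% and 14.5% of all genes. Fabp6, under the minimum level, was at 0.0691 (0.0215 to 0.172) and 0.0977 (0.0487 to 0.179). From the middle to the tip Abcg8 was lower, at 0.686 (0.627 to 0.7505) in the Adipfl/fl library and 0.518 (0.481 to 0.557) in the Adipfl/flpVilli-CreT library. Abcg5 did not differ beyond counting error there in the Adipfl/fl library, at 0.998 (0.9315 to 1.07), and was at 0.816 (0.773 to 0.861) in the Adipfl/flpVilli-CreT library. From the middle to the tip 35.5% and 39.7% of all genes tested were lower by 2-fold or more and 8.24% and 8.90% higher. Of the 7 and 6 members tested, Slc51a, Slc51b and Nr1h4 were among the lower genes in both libraries. Fgf15 was so in the Adipfl/fl library, and 0 of the members tested were among the higher. Under the minimum of 10 CPM, Slc10a2 was at 2.035 (0.8255 to 4.923) and 3.016 (1.739 to 5.332). Fgf15 in the Adipfl/flpVilli-CreT library, also under it, was at 0.0814 (0.0164 to 0.248). The ratio of Abcg5 to Abcg8 UMIs was 1.145 (1.03 to 1.27) and 1.25 (1.165 to 1.35) at the bottom and 1.89 (1.71 to 2.08) and 2.07 (1.91 to 2.24) at the tip. With zones cut from the marker score, the ratio of tip to bottom turned from 1.47 to 0.768 for Abcg8 in the Adipfl/fl library and from 1.75 to 0.975 for Abcg5 in the Adipfl/flpVilli-CreT library. Both genes overlap on opposite strands over 6710 bases.

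Their shared promoter is shown because the genes lie head to head. The RefSeq window of Abcg5 is chr17:84682962-84683261 on the minus strand, and 209 of its bases also lie in 1 of both windows that RefSeq lists for Abcg8, chr17:84682871-84683170 on the plus strand. Capitals mark AGATAA, the motif of GATA factors, on either strand.
Abcg5: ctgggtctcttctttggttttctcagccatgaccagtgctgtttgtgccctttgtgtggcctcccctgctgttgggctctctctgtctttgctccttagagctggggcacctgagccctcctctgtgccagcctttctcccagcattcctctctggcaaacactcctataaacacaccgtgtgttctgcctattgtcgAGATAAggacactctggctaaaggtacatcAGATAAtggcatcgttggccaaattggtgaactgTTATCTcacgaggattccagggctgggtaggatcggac
It held 3 matches, at -52, -22 and 13. Of all 32851 windows 11.2% held at least 1 match, and this says nothing about binding. The same 3 sites lie in the Abcg8 window on the other strand, at -127, -93 and -63, and among the other members only the Nr1h4 window held a match, at -131.

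**Figure D1:**
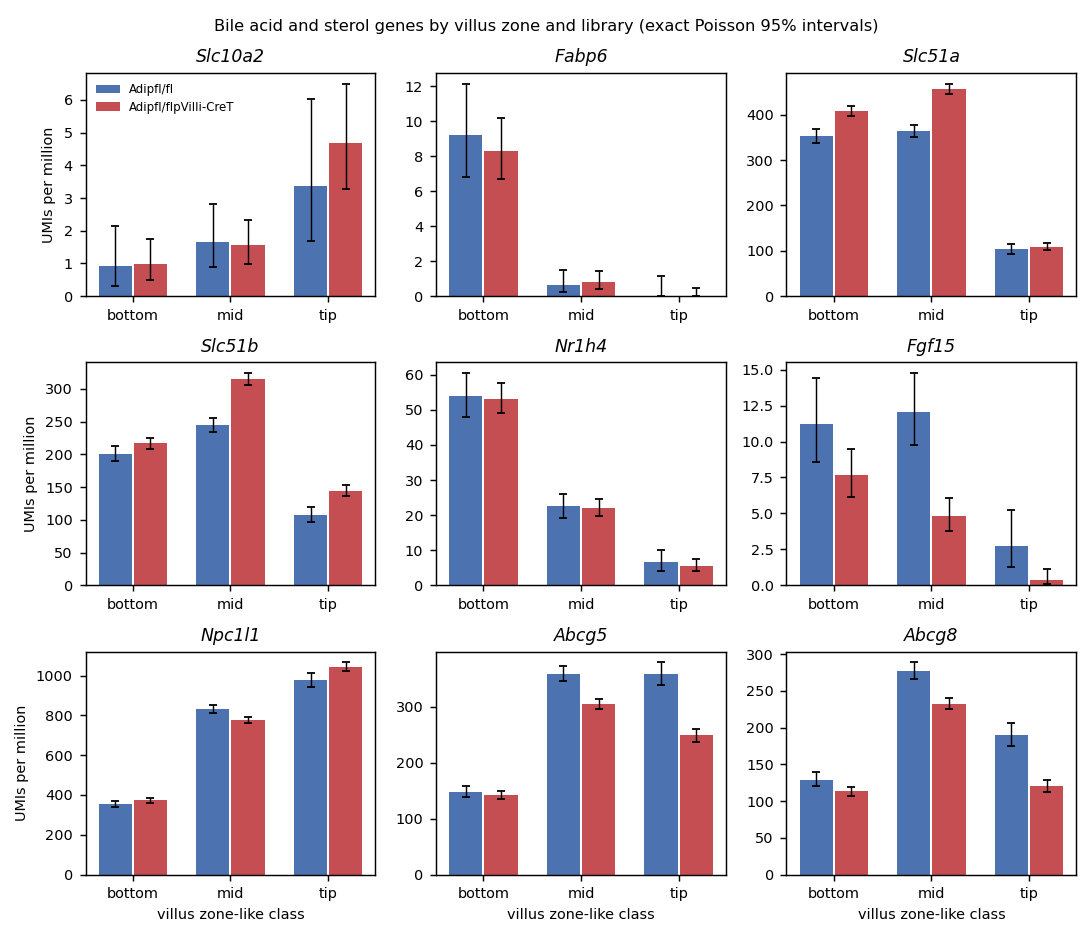
Levels of the 9 genes (CPM, linear axes from 0) in the villus bottom-like, mid-villus-like and villus tip-like classes of the Adipfl/fl library (blue) and the Adipfl/flpVilli-CreT library (red). Bars are sums over barcodes and error bars exact Poisson 95% intervals, which cover counting error only. Slc10a2 and Npc1l1 were highest at the tip, Fabp6 and Nr1h4 at the bottom, and Slc51b and Abcg8 in the middle, where Slc51a at 363 and 457 CPM was also highest.

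The enterocyte-like classes were not uniform inside. The 8 clusters that make up the zones ranged over 45.6 to 502 CPM for Slc51a, 66.9 to 371 CPM for Slc51b, 97.7 to 607 CPM for Abcg5 and 42.1 to 337 CPM for Abcg8, taking both libraries together. Slc51a was lowest in cluster 3 (45.6 and 52.9 CPM), the tip-like cluster with 10 of 10 tip markers, and so was Abcg8 (71.1 and 42.1 CPM). Abcg5 was highest in cluster 2 (607 and 461 CPM), another tip-like cluster. The tip class of both libraries was made of these clusters in different parts, with 286, 378 and 212 barcodes of clusters 0, 2 and 3 in the Adipfl/fl library and 933, 537 and 579 in the Adipfl/flpVilli-CreT library. In the Adipfl/fl library the most barcodes of the class were in cluster 2, and in the Adipfl/flpVilli-CreT library in cluster 0. The mid-villus class was mixed as well. Cluster 1 made up 421 of its 898 barcodes in the Adipfl/fl library and 537 of 1489 in the Adipfl/flpVilli-CreT library. This cluster had 3 of 10 mid-villus markers and 2 tip markers. Its median depth of 3766.5 UMIs and median mitochondrial share of 21.01% were near those of the tip-like clusters.

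**Figure D2:**
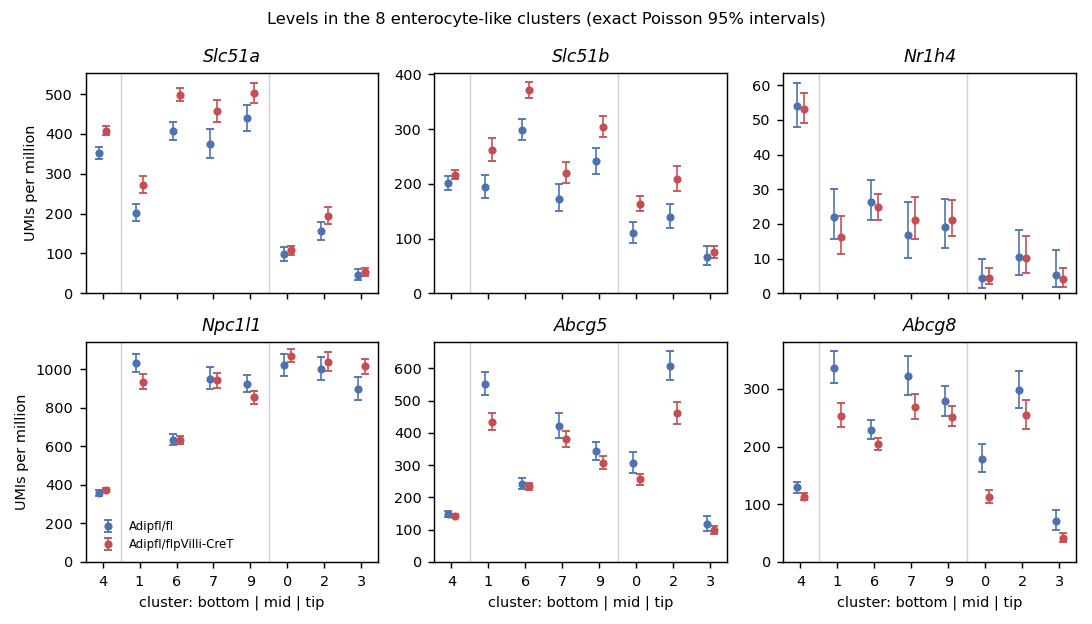
Levels of 6 members (CPM, linear axes from 0) in the 8 enterocyte-like clusters, given by number and ordered as bottom, mid and tip, in the Adipfl/fl library (blue) and the Adipfl/flpVilli-CreT library (red), with exact Poisson 95% intervals. Abcg5 reached 607 CPM in cluster 2 and 97.7 CPM in cluster 3, both tip-like.

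Between the genotypes Fgf15 was over 2-fold lower in the enterocyte-like barcodes of the Adipfl/flpVilli-CreT library, and the 6 members above the minimum level differed by less than 1.5-fold. Of 7164 genes tested with at least 10 CPM in the higher library, 0.949% were higher and 0.754% were lower by 1.5-fold or more in the Adipfl/flpVilli-CreT library, and none of the 6 members tested was. Fgf15 lay just under that minimum, and at a minimum of 5 CPM, set once its level was known, it became the 1 member past the fold. The share of all genes past the fold at 5 CPM was not computed, so this count is a description only. By counting error alone, 21.2% of all tested genes had an interval above 1 and 21.8% one below 1. Slc51a and Slc51b were above and Abcg5 and Abcg8 below, 2 of 6 each way.

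Fgf15 was 0.479-fold (0.383 to 0.598) of the Adipfl/fl level in the Adipfl/flpVilli-CreT library. Its ratio was 0.6845 (0.488 to 0.966) at the bottom and 0.398 (0.288 to 0.546) in the middle, where 1.19% of all genes tested were lower and 1.34% higher by 1.5-fold or more and Fgf15 was the 1 of 7 members that was. At the bottom 0 of 7 members were past that fold, against 1.08% of all genes higher and 0.952% lower. The 9 and 3 UMIs at the tip were too few to weigh. Its fold was below 1 in 7 clusters, and the eighth, cluster 3, held 0 UMIs in both libraries. The interval excluded 1 in 4 of the 7, and clusters 0 and 2 rested on 4 against 2 and 5 against 1 UMIs. Without the barcodes with 5 or more Fgf15 UMIs, a setting chosen after the data were seen, the ratio was 0.637 in all enterocyte-like barcodes and 0.806 in the middle. Outside the zones the direction was mixed. Unnamed cluster 10 held 0 Fgf15 UMIs in the Adipfl/fl library and 13 in the other, while unnamed cluster 12 had a ratio of 0.457 (0.2525 to 0.818). Barcodes removed by the mitochondrial limit had a ratio of 0.824 (0.4885 to 1.374).

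The sterol efflux genes were lower in the Adipfl/flpVilli-CreT library. Abcg5 was at 0.819 (0.7905 to 0.849) and Abcg8 at 0.790 (0.757 to 0.824) of the Adipfl/fl level. Both were below 1 in all 8 clusters, with an interval that excluded 1 in 4 of them for Abcg5 and 7 for Abcg8. For these and the other members the clusters are parts of the same libraries and no replicates. Of the pooled zones the tip had the lowest ratio, 0.694 (0.645 to 0.747) for Abcg5 and 0.633 (0.571 to 0.702) for Abcg8. Abcg8 was the 1 of 5 members tested that was lower there by 1.5-fold or more, as were 5.58% of all 5771 genes, with 2.74% higher and 0 members among them. With each cluster given the weight of the Adipfl/fl library, a setting chosen after the data were seen, the tip values were 0.789 and 0.7501. Within clusters 0, 2 and 3, which make up the tip class, the Abcg8 ratio was 0.628, 0.855 and 0.591. That of Abcg5 was 0.835, 0.759 and 0.8295, each above its pooled 0.694, and 0.787 in mid-villus cluster 1. The pooled tip values of both genes thus moved nearer to 1 under the weights of the Adipfl/fl library. The part of the different mix of clusters in them was not tested further. Under those weights Abcg8, at 0.7501, was no longer lower by 1.5-fold at the tip. Under a mitochondrial limit of 10%, which left 11 and 18 tip-like barcodes, the ratio in all enterocyte-like barcodes was 0.9615 for Abcg5 and 0.913 for Abcg8.

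The exporter genes were higher in the Adipfl/flpVilli-CreT library. Slc51a was at 1.17 (1.135 to 1.21) and Slc51b at 1.196 (1.15 to 1.245) of the Adipfl/fl level, and both were above 1 in all 8 clusters. Every named class outside the zones had a ratio above 1 for both genes, while the unnamed clusters were mixed. In enteroendocrine-like barcodes the ratio was 2.61 (1.48 to 4.81) for Slc51a and 1.94 (0.976 to 4.06) for Slc51b. In tuft-like barcodes it was 1.28 (0.927 to 1.77) and 1.89 (1.26 to 2.89). Cycling, myeloid and B or plasma barcodes held few UMIs of either gene in the Adipfl/fl library. In goblet-like barcodes the ratio was 2.002 (1.64 to 2.45) for Slc51a and 1.955 (1.535 to 2.51) for Slc51b. In unnamed cluster 10 it was 0.926 (0.7605 to 1.13) and 0.831 (0.567 to 1.235), and in unnamed cluster 12 it was 1.07 (0.888 to 1.29) and 0.763 (0.5505 to 1.06), all with intervals that held 1. Npc1l1 also had ratios above 1 outside the zones, at 1.34 (1.205 to 1.49) in goblet-like and 1.79 (1.31 to 2.47) in enteroendocrine-like barcodes. It was at 1.29 (0.995 to 1.69) in tuft-like and 0.963 (0.379 to 2.45) in B or plasma barcodes. Abcg8 was at 2.23 (1.18 to 4.48) in enteroendocrine-like, 1.19 (0.982 to 1.45) in goblet-like and 0.964 (0.627 to 1.485) in tuft-like barcodes. Higher levels outside the zones were thus not particular to Slc51a and Slc51b. In T cell-like barcodes, Slc51a was at 13.7 CPM (24 UMIs) and 35.3 CPM (69 UMIs), a ratio of 2.58 (1.60 to 4.29), and Npc1l1, whose enterocyte level differed by less than counting error at 0.997 (0.975 to 1.02), was at 54.2 and 123.2 CPM, a ratio of 2.27 (1.785 to 2.91). The T cell-like ratio of Slc51b was 2.08 (1.24 to 3.60). It was 1.303 (0.966 to 1.765) for Abcg5, 1.53 (0.965 to 2.47) for Abcg8 and 0.672 (0.0984 to 3.97) for Nr1h4, all with intervals that held 1. These intervals also overlapped that of Slc51a, so a difference from it cannot be read here, and Nr1h4 rested on 4 and 3 UMIs. The part of free RNA in the enterocyte values of Slc51a and Slc51b was not tested. With the T cell-like level of its own library subtracted, the ratio in all enterocyte-like barcodes was 1.11 for Slc51a and 1.14 for Slc51b, and that of Slc51a at the tip, 1.055 (0.928 to 1.201) before, was 0.822. Nr1h4 was at 0.968 (0.868 to 1.08), Fabp6 at 0.945 (0.676 to 1.33) and Slc10a2 at 1.18 (0.758 to 1.89), all with intervals that held 1. Without the barcodes with 5 or more Fabp6 UMIs the Fabp6 ratio was 1.85, so a few barcodes decided it.

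**Figure D3:**
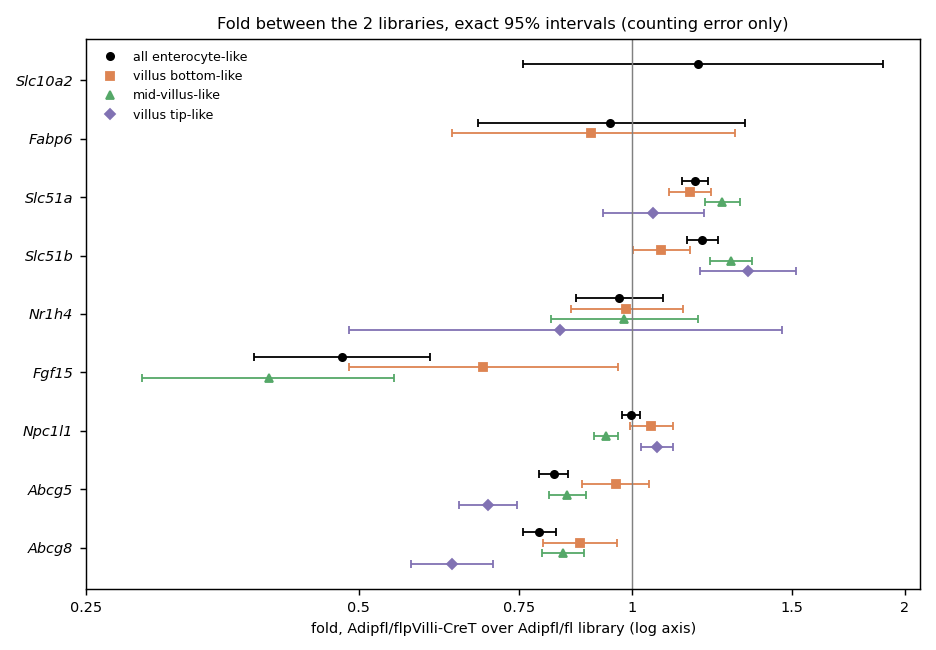
Fold of each gene in the Adipfl/flpVilli-CreT library over the Adipfl/fl library (log axis) in all enterocyte-like barcodes and in each villus zone, with exact 95% intervals for counting error. Only sets with at least 20 UMIs in both libraries are drawn, and the vertical line marks no difference. Fgf15, Abcg5 and Abcg8 lie left of the line and Slc51a and Slc51b right of it.

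The share of barcodes with a member was compared after each barcode was thinned to 2000 UMIs, which left 1881 and 3811 enterocyte-like barcodes and left out 115 and 168 shallower ones. Npc1l1 was seen in 79.1% (77.2% to 80.9%) of the Adipfl/fl barcodes and in 79.1% (77.7% to 80.3%) of the others. Abcg5 was seen in 47.3% and 41.2%, Abcg8 in 36.04% and 26.8%, Slc51a in 33.1% and 35.7%, and Slc51b in 27.4% and 30.9%. The same shares in T cell-like barcodes were 6.997% and 12.0% for Npc1l1, 8.455% and 5.10% for Abcg5, 3.21% and 2.55% for Abcg8, 2.04% and 3.57% for Slc51a, and 2.04% and 3.32% for Slc51b. Nr1h4 was seen in 3.46% and 3.36% of enterocyte-like barcodes, against 0.2915% and 0% of T cell-like ones. The shares of Fgf15 (0.957% and 0.551%), Slc10a2 (0.4785% and 0.630%) and Fabp6 (0.213% and 0.289%) had intervals that overlapped those of T cell-like barcodes, and at this depth are not read as expression or as a difference. Before thinning, with medians of 4395.5 and 4354 UMIs, the shares of enterocyte-like barcodes were 3.01% and 1.73% for Fgf15 and 1.25% and 1.58% for Slc10a2.

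**Figure D4:**
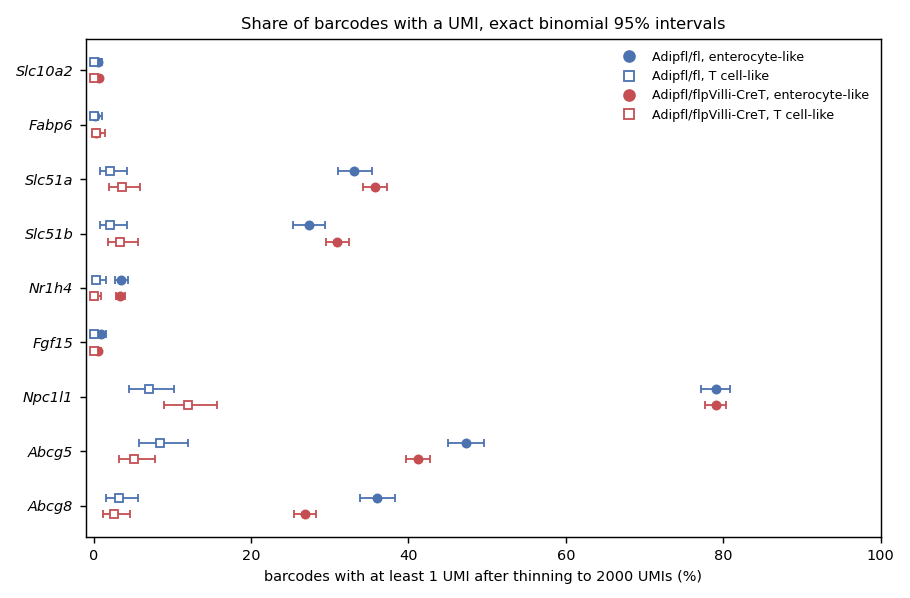
Share of barcodes with at least 1 UMI of each gene (%) after thinning to 2000 UMIs, in enterocyte-like barcodes (filled circles) and T cell-like barcodes (open squares) of the Adipfl/fl (blue) and Adipfl/flpVilli-CreT (red) libraries, with exact binomial 95% intervals. Npc1l1 was near 79.1% in both libraries and in 6.997% and 12.0% of T cell-like barcodes.

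Barcodes that carried an ileal gene were few, so they are described and not compared. The 9 thinned Adipfl/fl barcodes with a Slc10a2 UMI held 13 UMIs of Npc1l1, 8 of Abcg5, 0 of Fabp6 and 0 of Fgf15. The 24 such barcodes of the Adipfl/flpVilli-CreT library held 47 of Npc1l1, 18 of Abcg5, 0 of Fabp6 and 1 of Fgf15. Fabp6 marked 4 and 11 thinned barcodes, of which 3 and 9 were bottom-like, and these held no Slc10a2 UMI. Both genes are so rare that a lack of shared barcodes cannot be read from these numbers.

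The members were set beside genes of known region in the intestine. Of the proximal list, Fabp1, the fatty acid-binding protein of the proximal intestine, had 5068 and 4014 CPM in enterocyte-like barcodes and Lct, the lactase gene, 738 and 612 CPM. Gata4, a factor of the proximal intestine, had 63.4 and 66.5 CPM, Cd36, a fatty acid transporter, 47.4 and 33.4 CPM, and Onecut2, a factor of the duodenum, 41.4 and 40.4 CPM. S100g, a calcium-binding protein, had 14.6 and 11.7 CPM. The duodenal iron exporter Slc40a1 had 3.501 and 2.25 CPM, the iron reductase Cybrd1 0.664 and 1.33 CPM, and Pdx1 had 0 and 2 UMIs. Of the distal list, the vitamin B12 receptor subunits Cubn and Amn had 209 and 151 CPM and 455 and 476 CPM, Clec2h 1589 and 1388 CPM, and Osr2 93.8 and 100.1 CPM. Between the genotypes 0 of the 6 proximal and 0 of the 4 distal genes tested were past 1.5-fold in all enterocyte-like barcodes. Median log2 differences were -0.29 and -0.07, against 0.00 over all genes tested, and 1 proximal and 2 distal genes had a ratio above 1. Fabp1 was at 0.792 (0.785 to 0.799), Lct at 0.829 (0.811 to 0.848) and S100g at 0.803 (0.682 to 0.946) of the Adipfl/fl level. Cd36 was at 0.704 (0.642 to 0.772) and Cubn at 0.721 (0.691 to 0.753) of the Adipfl/fl level. By zone, 1 proximal gene was lower by 1.5-fold or more at the bottom, S100g at 0.563 (0.465 to 0.683), where 0.952% of all genes were. At the tip, where 5.58% of all genes were, 1 proximal gene was, Cd36 at 0.661 (0.522 to 0.838), and 1 distal gene, Cubn at 0.542 (0.486 to 0.605). The direction was not the same in all zones. Below the minimum level, S100g was at 1.795 (1.25 to 2.62) in the middle and had 0 and 24 UMIs at the tip. Onecut2 was at 0.680 (0.579 to 0.799) at the bottom and 1.24 (1.07 to 1.45) at the tip. Of the regional transcription factors, GATA, CDX and HNF1 genes, 5 of 6 were tested and 0 were past 1.5-fold, with a median of -0.04. Of the proximal list 6 genes and of the distal list all 4 reported thus stood above 10 CPM in both libraries, and above Fabp6 and Slc10a2. S100g was the lowest of them at 14.6 and 11.7 CPM. Slc40a1, Cybrd1 and Pdx1 of the proximal list lay near or below Fabp6 and Slc10a2. The labels give small intestinal epithelium and name no segment, while legends of the study's supplement call the cell clusters those of ileum. The low levels of Fabp6 and Slc10a2 stand beside that name, and what sets them was not tested.

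**Figure D5:**
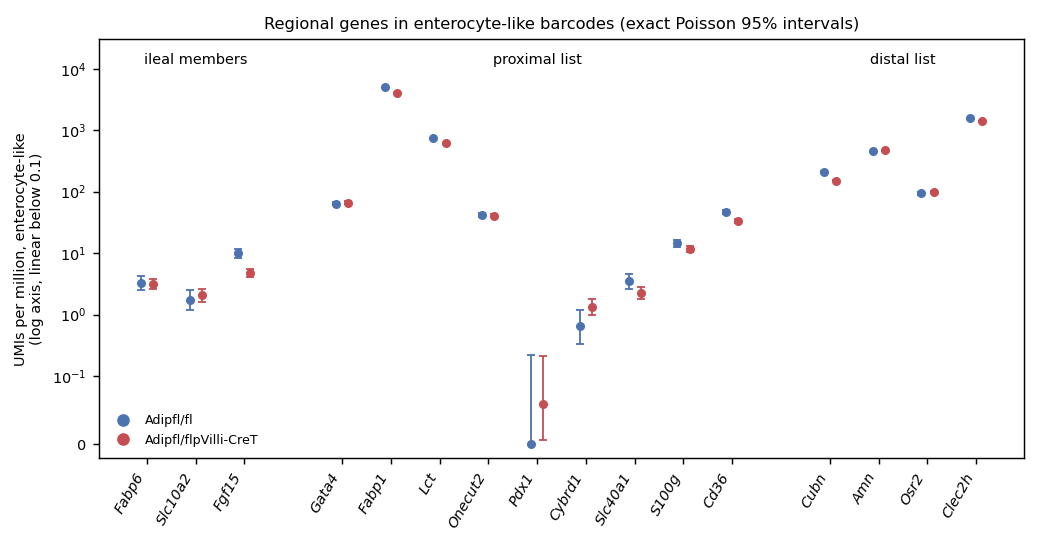
Levels in enterocyte-like barcodes (CPM, log axis that is linear below 0.1) of 3 ileal genes, the proximal list and the distal list in the Adipfl/fl (blue) and Adipfl/flpVilli-CreT (red) libraries, with exact Poisson 95% intervals. Fabp6 and Slc10a2 lay at 1.75 to 3.32 CPM, and Lct at 738 and 612 CPM.

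The other genes of both pathways were read from lists. Of 14 bile acid genes 10 had at least 10 CPM in the higher library, and 0 of them were past 1.5-fold between the genotypes in all enterocyte-like barcodes. Their median log2 difference was -0.08, against 0.00 over all genes tested. Abcc3, a basolateral exporter of conjugates, came nearest, at 16.7 and 24.4 CPM, a ratio of 1.47 (1.28 to 1.69). In the middle it was at 9.66 and 21.03 CPM, the 1 gene of the list past 1.5-fold there, as were 1.34% of all genes on the higher side. At the tip 1 of 8 genes tested was lower by as much, as were 5.58% of all genes. It was Abcc2, an apical exporter of conjugates, at 140 and 89.65 CPM, a ratio of 0.642 (0.569 to 0.724). Other exporters and enzymes were Abcc2 (183 and 167 CPM) and Cyp3a11 (381 and 381 CPM), which was 30.6 and 26.5 CPM at the bottom and 730 and 810.5 CPM at the tip. Between tip and bottom, 10 genes of the list were tested, of which 2 were higher and 3 lower by 2-fold or more in the Adipfl/fl library and 1 higher and 3 lower in the Adipfl/flpVilli-CreT library. Of all genes tested 12.1% were higher and 46.7% lower in the first and 12.1% and 49.2% in the second, so the lower count was below that share. Nr0b2 (SHP), the repressor that FXR induces, had 11 and 12 UMIs in all enterocyte-like barcodes. Gpbar1, the membrane bile acid receptor, had 0 and 2 UMIs, and the FGF15 receptor genes Fgfr4 and Klb had 3 and 8 UMIs and 0 and 4 UMIs, at most 0.237 CPM. The nuclear receptor Vdr had 200 and 188 CPM and the factor Hnf4a 236 and 240 CPM, while Nr5a2, a factor of crypts and the villus base, had 54.3 and 60.6 CPM at the bottom and 0.306 and 0.6515 CPM at the tip.

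Of 10 sterol genes 7 were tested between the genotypes, and 0 were past 1.5-fold in all enterocyte-like barcodes, with a median log2 difference of -0.02. At the tip 1 of 8 tested was lower by as much, against 5.58% of all genes. It was Abca1, a cholesterol efflux transporter, at 35.5 and 21.8 CPM, a ratio of 0.614 (0.481 to 0.784), while it was at 1.22 (1.015 to 1.48) at the bottom and 1.16 (1.05 to 1.29) in the middle. Soat2, which esterifies cholesterol after Npc1l1 has imported it, had 215 and 188 CPM, a ratio of 0.875 (0.840 to 0.912). Npc1, which moves cholesterol out of lysosomes, had 76.9 and 95.7 CPM, a ratio of 1.245 (1.17 to 1.33), and was 25.2 and 29.7 CPM at the bottom and 228 and 266 CPM at the tip. Over all zones Abca1 had 49.0 and 51.6 CPM and the liver X receptor genes Nr1h3 56.5 and 62.5 CPM and Nr1h2 71.5 and 64.6 CPM. Between tip and bottom, 8 genes were tested, of which 3 were higher and 1 lower by 2-fold or more in the Adipfl/fl library and 2 higher and 1 lower in the Adipfl/flpVilli-CreT library, against the same shares of all genes, 12.1% higher in both and 46.7% and 49.2% lower. Scarb1, which also takes up sterols, had 1 and 7 UMIs in all enterocyte-like barcodes. Abcg1 had 6 and 15 UMIs there and 36.5 and 41.4 CPM in T cell-like barcodes.

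Genes with a profile most like each member were found over 34 points, 17 clusters or classes in each library, which share depth, free RNA and the same libraries. Each correlation is a description across these points. Slc51a was most like Tkfc (Pearson's r 0.981), Enpep (0.976) and Tmem120a (0.966), and Slc51b like Cyp4f14 (0.972), Mep1b and Enpep (each 0.969). Npc1l1 was most like Slc27a4 (0.986), a fatty acid transporter, then Slc3a1 (0.984) and Cyp3a13 (0.976). Abcg5 was most like Cobl and Soat2 (each 0.976) and Gm8909 (0.970), and Abcg8 like Igsf9 (0.975), Btnl1 (0.973) and Btnl6 (0.965). Nr1h4 was most like Pde3a (0.941), Ppara (0.938) and Abat (0.932), and Fgf15 like Gm26620 (0.905), D130043K22Rik (0.881) and Ereg (0.853). Within the members, the exporter subunits had r of 0.931 with each other and the efflux genes 0.935, while Npc1l1 and Nr1h4 had r of 0.306. The 5 genes most like Fabp6 over enterocyte-like barcodes had r of at most 0.200 in sparse counts, which is no finding.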

How the data were processed

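Single-cell RNA was measured with the 10x 3′ v3 kit in 1 library per genotype. The authors deposited raw UMI counts per gene and barcode, with Cell Ranger 7.1.0 in the file header and, per the submitters' processing notes, the mouse build mm10 and bcl2fastq 5.0.1. Barcodes in which over 500 genes were detected and mitochondrial UMIs made up less than 25% were clustered in Seurat 5.3.0 (R 4.3.3) on 2000 variable genes without the 9 members, with 20 components and a resolution of 0.8, which gave 21 clusters. A cluster was named from at least 3 markers of a list, and 3 clusters stayed unnamed. Doublets were not removed in the reported values.

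Counts were summed per class and library in Python 3.11.15 (numpy 2.4.6, pandas 2.3.3) and divided by the class's UMIs. Intervals are 95%, exact Poisson for sums and ratios and exact binomial (Clopper-Pearson) for shares, from scipy 1.17.1. With 1 library per genotype no test was run. A gene entered a comparison with at least 10 CPM in the higher class or library, and was counted past 1.5-fold between genotypes or 2-fold between zones. Against 0 UMIs a floor of 3 UMIs was used. The text names all 9 members, genes of the proximal, distal, bile acid and sterol lists, the 3 genes of highest Pearson correlation of log2(CPM + 10) with each member of at least 200 UMIs, and leading genes of clusters. Of the distal list, 1 gene is not reported here and was left out of its counts. The members and lists were chosen with earlier results of these data known. Promoter windows came from RefSeq on GRCm38.p6 and gene positions from GENCODE on GRCm38. Alternatives covered the barcode limits, denominators, zones, clustering, thinning, free RNA, doublets (scanpy 1.11.5) and the minimum level. The scripts were tested on simulated data.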

Additional observations from a re-analysis of the deposited data

Results flagged for a closer look

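Levels above that of all enterocyte-like barcodes pooled, beyond counting error in both libraries, were seen in barcodes that the comparisons did not use. Some zones or clusters were as high or near. Fabp6 was at 9.21 and 8.31 CPM at the villus bottom and Npc1l1 at 979 and 1044 CPM at the tip. Slc51a was at 439.4 and 502.2 CPM in cluster 9 and Abcg5 at 607.3 and 461.1 CPM in cluster 2. Fgf15 reached at most 14.88 CPM in an enterocyte-like cluster. Fabp6 had 6.899 CPM in the Adipfl/fl and 6.528 CPM in the Adipfl/flpVilli-CreT barcodes of unnamed cluster 10, in 13 of 82 and 26 of 216 barcodes. In unnamed cluster 12, whose leading gene was Fgf15, Slc51a had 488.7 and 523.1 CPM. Fgf15 had 80.99 and 37.02 CPM there, from 29 and 23 UMIs in 9 of 68 and 7 of 152 barcodes, and 1 barcode held 12 of the 23. Since Fgf15 leads the cluster, its level there is a description. Among barcodes removed by the mitochondrial limit, 4670 and 4263 in number, Npc1l1 had 725.7 and 783.8 CPM and Abcg5 had 468.9 and 342 CPM. For Npc1l1 this was only 1.031-fold (1.003 to 1.059) and 1.116-fold (1.09 to 1.143) of the pooled level. No cause of these levels was tested.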

How the results depend on the processing

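No paired analysis was possible because each genotype has 1 library, which also leaves no replicate to leave out. In all enterocyte-like barcodes a limit of 10% on the mitochondrial share gave genotype ratios of 0.9615 for Abcg5, 0.9132 for Abcg8 and 1.034 for Npc1l1, and a share from protein-coding mitochondrial genes gave 0.9077 for Abcg5 and 1.043 for Npc1l1. A mean over barcodes gave 0.7121 for Abcg5, 0.7041 for Abcg8, 0.8147 for Nr1h4, 1.127 for Slc51a and 1.249 for Slc51b. Subtracting the T cell-like level gave 0.733 for Abcg5, 0.7225 for Abcg8, 0.8909 for Npc1l1, 1.108 for Slc51a and 1.138 for Slc51b, and turned Npc1l1 at the tip to 0.9957. Chosen after seeing the data, Adipfl/fl cluster weights gave 0.8705 for Abcg5 and 0.8357 for Abcg8, and leaving out barcodes with 5 or more UMIs of the gene gave 0.6374 for Fgf15 and 1.854 for Fabp6.

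Zones from the marker score turned the ratio of middle to bottom of Slc51a to 0.6058 in the Adipfl/flpVilli-CreT library and of Slc51b to 0.7899 and 0.8404, and that of tip to bottom of Abcg5 to 0.9749 in the Adipfl/flpVilli-CreT library and of Abcg8 to 0.7681 in the Adipfl/fl library. The 10% limit, with 11 and 18 tip-like barcodes, turned tip to bottom of Nr1h4 to 1.716 in the Adipfl/fl library and of Abcg5 to 0.9472 in the Adipfl/flpVilli-CreT library. Members lower by 1.5-fold between the genotypes went from 0 to 1 (Fgf15, which then passed the minimum level) with the 10% limit, with a higher minimum of genes per barcode, with denominators without mitochondrial UMIs or the 50 most abundant genes, without the 8% highest Scrublet scores and at 5 CPM. Members higher by 2-fold from bottom to tip went from 2 to 0 with score zones and to 1 with members kept or resolutions of 0.4 and 1.2 in the Adipfl/fl library. They went from 1 to 0 with score zones and to 2 without mitochondrial UMIs or with T cell-like levels subtracted in the Adipfl/flpVilli-CreT library, where lower members went from 2 to 1 under the 10% limit. A minimum of 1 CPM added 1 higher (Cybrd1) and 1 lower (Slc40a1) proximal gene. The share of all genes past each fold was not computed under these alternatives, so the changed counts have no background beside them. The cause was not tested. Of the other values under alternatives, 385 stayed within counting error and 131 moved beyond it. A planned comparison of the members' proteins was not run.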
